A study of Mus musculus with 35 samples.

Results

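The genes described here encode the proteins of the cytosolic ribosome, followed across 3 cell sorts from mouse hind paw skin and across treatment with PTX (paclitaxel), which binds and stabilises microtubules and is used in chemotherapy. They were chosen by symbol (Rpl or Rps followed by a number, with Rplp0, Rplp1, Rplp2 and Rpsa; the S6 kinases were left out) and by a mean of at least 10 counts over the 35 libraries. Of 22609 symbols in the count tables, 84 matched and 79 reached that mean. They are 30 proteins of the small subunit, 41 of the large subunit, the 3 acidic stalk proteins and 5 paralogs (Rpl3l, Rpl7l1, Rpl22l1, Rps27l and Rps4y2). Rpl3l was just inside the minimum with a mean of 12.2 counts, and Rps23 (0.543), Rpl39l (0.40), Rpl26 (0) and Rpl10l (0) were among those outside it. Rpl4 had the highest mean, 17387 counts.

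All mice were C57 animals of 8 to 16 weeks. The immune sort took CD45+ cells of WT mice. The other 2 sorts took tdTomato+ cells, of mice carrying Col1a2-cre-ER for fibroblasts and of mice carrying K5-cre-ER for keratinocytes, so sort, genotype and sort method cannot be told apart. Both Cre enzymes are inducible, and tdTomato marks the cells in which they were active together with the descendants of those cells. Every sort was done from females and males given vehicle and from males given PTX, with 4 libraries a group except 3 for the keratinocytes of vehicle males. PTX was given in 2 intraperitoneal injections of 2 mg/kg, 1 day apart, and skin was collected 6 days after the last. The labels do not say that libraries came from separate mice. The p-values therefore reflect variation among libraries that could be technical.

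A cytosolic ribosome holds a single copy of most ribosomal proteins, and cells make these proteins in matched amounts together with ribosomal RNA. Their messenger RNAs are among the most abundant of dividing cells and are known for a 5′ terminal oligopyrimidine (TOP) tract, a C at the cap followed by a run of C and T bases, through which the mTOR kinase controls their translation. Most mammalian ribosomal protein genes also have many processed pseudogenes, near-identical copies that make short reads hard to place.

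The TOP tract was visible at the annotated starts of some members. RefSeq starts (GRCm38.p6) were matched for 58 members with 70 starts, and 13 of these starts (18.6%) had a C at the first base followed directly by at least 4 bases that were C or T, read on the gene's strand, against 2.51% of 32851 starts of all genes. Within 10 bases on either side of the start, 54.3% of the member starts and 30.7% of all starts held such a run. A start without a match says only that these letters are not at that position. The windows below run from 15 bases before the start to 15 bases from the start onward, with the pyrimidine run that opens the transcript in capitals. The first 5 belong to members whose differences between sorts are given below, and Rps3 is shown as a member with no match at its annotated start.
Rps6: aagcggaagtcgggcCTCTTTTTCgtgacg
Rplp2: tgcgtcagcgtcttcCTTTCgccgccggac
Rps10: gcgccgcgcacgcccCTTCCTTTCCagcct
Rps18: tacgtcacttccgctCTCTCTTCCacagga
Rpl38: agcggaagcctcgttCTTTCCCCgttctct
Rps3: cttgcaagggtcgccgcgctgcgcggcgtc
The windows lie at chr4:86857353-86857382 on the minus strand (Rps6), chr7:141447636-141447665 on the plus strand (Rplp2), chr17:27635230-27635259 on the minus strand (Rps10), chr17:33955651-33955680 on the minus strand (Rps18), chr11:114668565-114668594 on the plus strand (Rpl38) and chr7:99483695-99483724 on the minus strand (Rps3). Each spans the annotated transcription start and the beginning of the 5′ untranslated region.

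The libraries were of unequal depth: counts in genes were 13847475 to 18979776 per immune library, 13359088 to 20809036 per fibroblast library and 6518070 to 12055718 per keratinocyte library, apart from replicate 2 of the vehicle female keratinocytes with 988712. Alignments with no unique place in the genome were not counted. As a share of all entries of the counter (HTSeq) they were 42.2 to 47.8% in immune, 34.9 to 47.7% in fibroblast and 48.3 to 60.9% in keratinocyte libraries. A read with several places may enter more than once, so these are not shares of reads. Markers of the sorted cell type were present in every sort. Markers of other cell types moved with treatment in the keratinocytes and with group in the immune cells, and fibroblast markers were lower after PTX in the fibroblast sort. Their values are given beside the results they touch.

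Members differed in how far reads of this length could place them. For each member 1 GENCODE M21 transcript was taken, and each of its stretches of 50 bases (the read length) was looked up in all other genes. A median of 50.9% of a member's stretches was found in no other gene, and 77 of 79 members shared at least 1 stretch with a pseudogene. Rpl8, a large subunit protein near the peptidyl transferase centre, had 92.1% unique stretches and 1253 CPM (counts of a gene per 1000000 gene counts) per kilobase of transcript on average over the libraries, while Rps27 had 1.35% and 33.3. Grouped by that share, 18 members under 25% had a median of 16.3 CPM per kilobase, 20 members from 25 to 50% had 57.3, 28 members from 50 to 75% had 86.2 and 13 members from 75% up had 295. The relation was loose: across the 79 members Spearman's rho between the unique share and the level per length was 0.33, a description over genes that share the same libraries. Rpl5, which binds 5S ribosomal RNA and Mdm2 together with Rpl11, had 51.5% unique stretches and only 1.53 CPM per kilobase, over a transcript of 2045 bases. The unique share and the level per kilobase both depend on the transcript taken for a gene, and the part of that choice was not tested. A member's level was therefore compared between samples here, and levels of different members with the unique share in view.

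**Figure D1:**
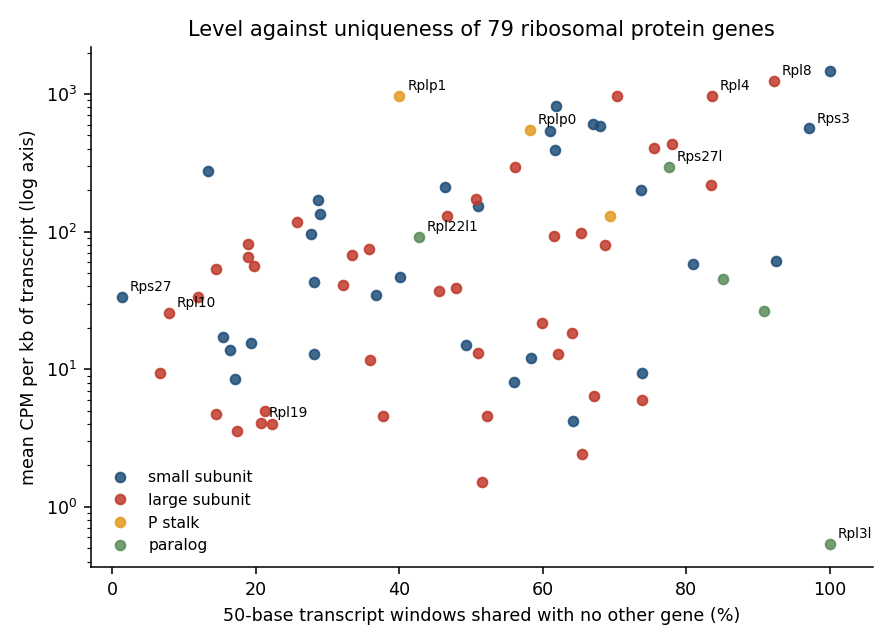
Each point is 1 of 79 ribosomal protein genes, coloured by role. The horizontal axis is the percent of its 50-base transcript stretches found in no other gene, and the vertical axis is its mean CPM per kilobase of transcript over 35 libraries on a log axis. Rpl8 (92.1%, 1253 CPM per kilobase) lies at the upper right, Rps27 (1.35%, 33.3) at the left and Rpl3l (100%, 0.541) at the lower right.

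Rps27 and its paralog Rps27l, a p53 target, are alike in coding sequence and unlike in how much of their transcripts is unique. Their coding sequences are both 252 bases long and share 192 of them (76.2%), and the first 60 bases, are printed below with the 18 differing bases in capitals, which are spread over the whole stretch.
Rps27: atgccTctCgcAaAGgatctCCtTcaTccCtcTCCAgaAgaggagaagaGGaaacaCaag
Rps27l: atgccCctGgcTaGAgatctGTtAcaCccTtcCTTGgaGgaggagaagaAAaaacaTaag
The stretches of Rps27 were shared with 9 other genes, 8 of them pseudogenes, and those of Rps27l with 4 other genes, all pseudogenes. Rps27l had 77.6% unique stretches and 295 CPM per kilobase, above the 33.3 of Rps27, and the part that uncounted reads had in this gap was not tested.

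Ribosomal protein genes were a far larger part of the counts in keratinocytes than in the other sorts. In vehicle females they took 4.53, 3.57, 3.33 and 2.58% of gene counts in the 4 keratinocyte libraries, 0.531, 0.867, 0.495 and 0.531% in the immune libraries and 0.313, 0.351, 0.334 and 0.294% in the fibroblast libraries. In vehicle males they took 3.11, 3.12 and 3.0% in keratinocytes, 0.70, 0.832, 0.837 and 0.695% in immune cells and 0.425, 0.323, 0.329 and 0.261% in fibroblasts. Every vehicle keratinocyte library was above every library of the other sorts, and every vehicle immune library was above every vehicle fibroblast library. Rpl4, whose protein lines the exit tunnel, had the most counts of the members in all immune and fibroblast libraries but 1. In bulk samples, fewer cells of a type and less RNA per cell cannot be told apart.

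**Figure D2:**
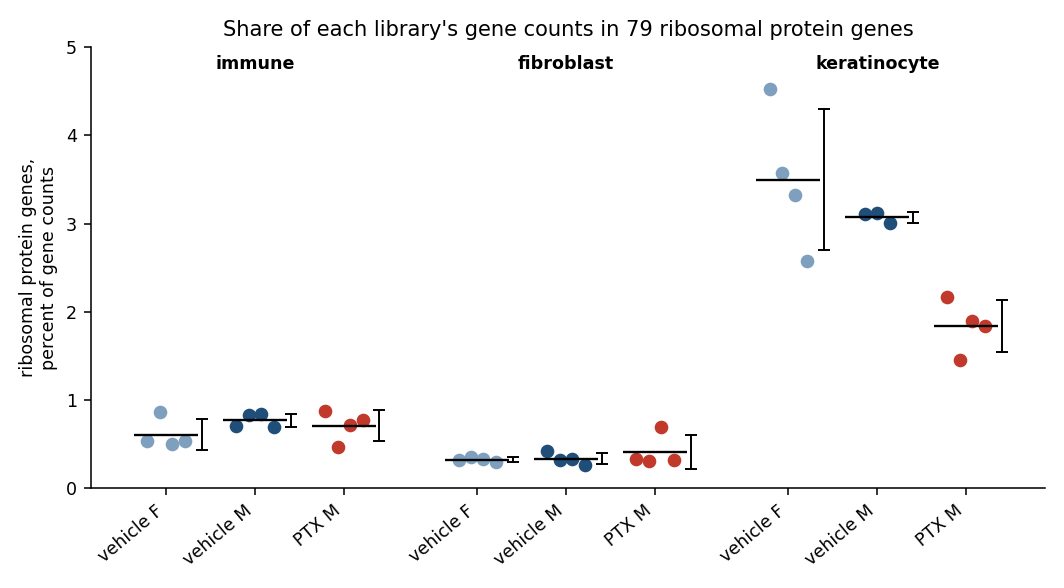
Percent of each library's gene counts in the 79 ribosomal protein genes, by sort and group (F, female; M, male). Points are libraries, horizontal bars group means and error bars the SD. Vehicle keratinocyte libraries lie between 2.58 and 4.53%, PTX keratinocyte libraries between 1.45 and 2.16%, and all immune and fibroblast libraries at or below 0.879%.

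In vehicle mice, 75 of 79 members (94.9%) had their highest mean CPM in keratinocytes, against 36.8% of all tested genes. For 52 the order was keratinocyte, immune, fibroblast and for 23 keratinocyte, fibroblast, immune. Rpl3l and Rpl7l1 were highest in immune cells with keratinocytes next, Rps4y2 in immune cells with fibroblasts next, and Rpl9 in fibroblasts. Rpl3l is a member only through a few libraries where it was high (below). The heat map of members by library shows this order as a red block over the keratinocyte columns that most members share.

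**Figure D3:**
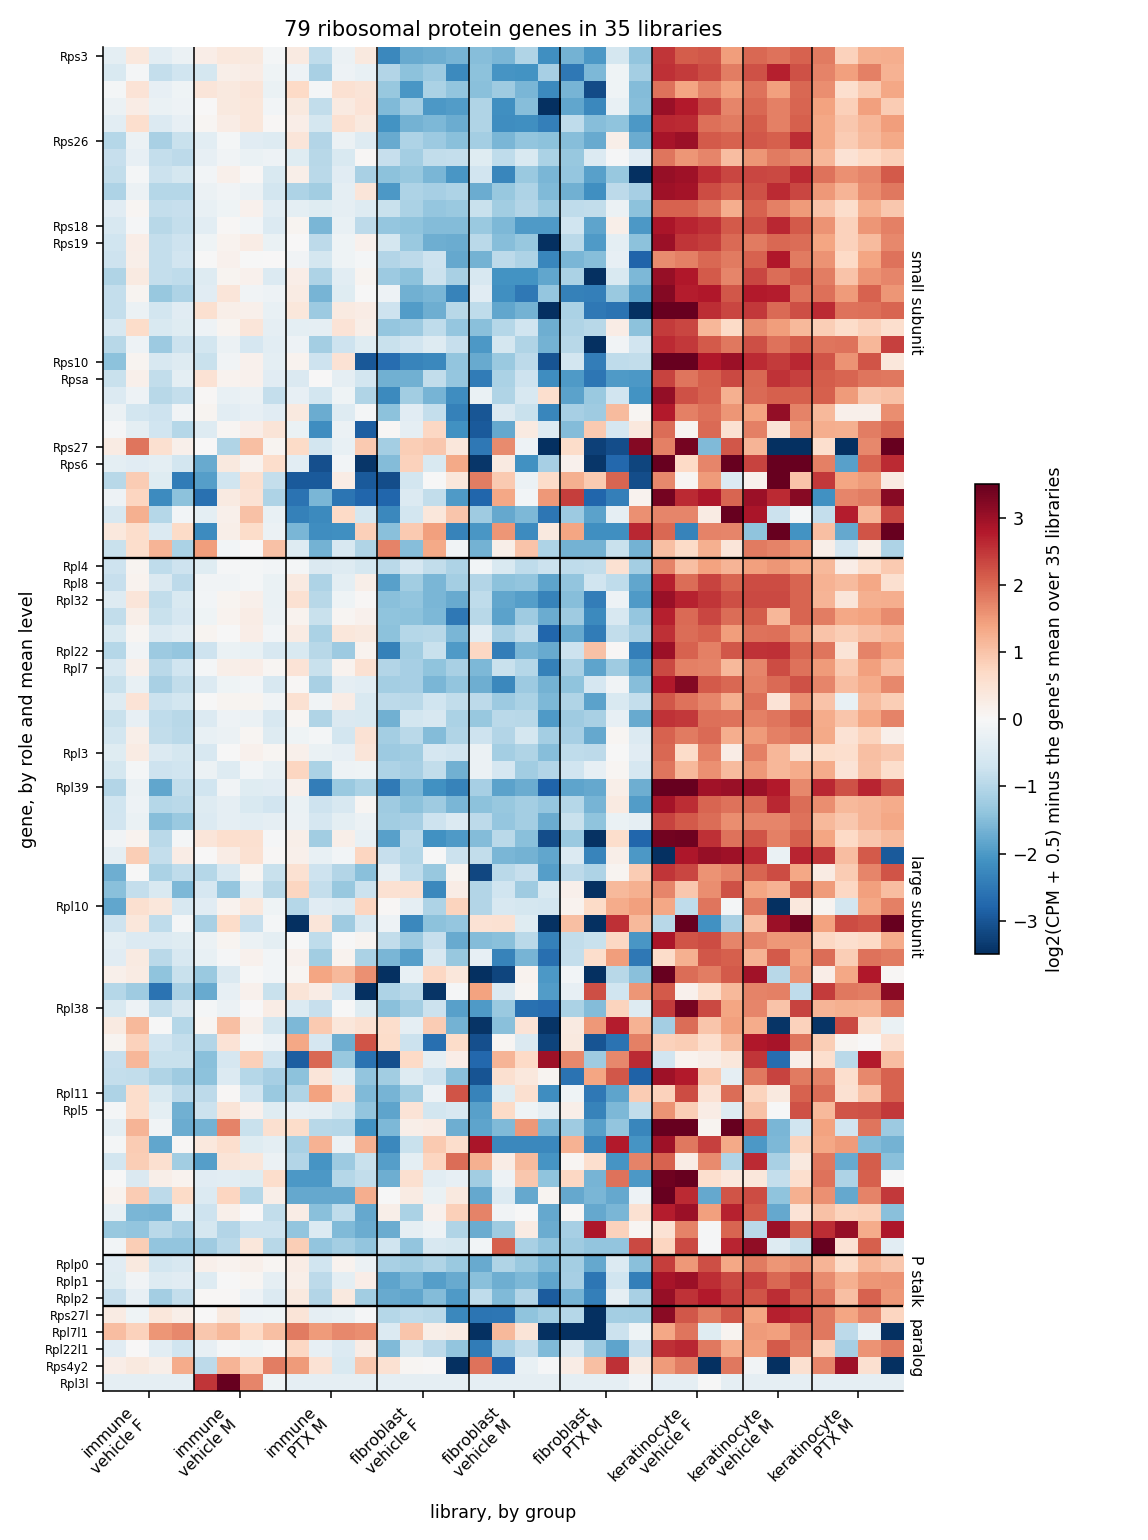
Log2(CPM + 0.5) of 79 ribosomal protein genes (rows, by role and mean level, with some of the genes named) in 35 libraries (columns, by group), less each gene's mean over the libraries. Red is above and blue below the gene's mean; members at the bottom of each role, with the fewest counts, vary most from library to library.

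The 3 stalk proteins, which form the flexible arm of the large subunit that recruits translation factors, were all lower in immune cells and in fibroblasts than in keratinocytes. Lower or higher means here that the adjusted p over all tested genes was under 0.05. For Rplp1 the lowest, median and highest vehicle library had 186, 201 and 249 CPM in immune cells and 69.5, 88.0 and 158 in fibroblasts, with keratinocytes at 871, 1052 and 1857. The 3 ranges do not overlap, and all 3 pairs of sorts differed. The log2 fold change was -2.43 ± 0.24 (SE) for immune cells against keratinocytes (edgeR quasi-likelihood F-test, Benjamini-Hochberg adjusted p = 1.98e-08), -3.57 ± 0.25 for fibroblasts against keratinocytes (adjusted p = 5.99e-11) and 1.13 ± 0.23 for immune cells against fibroblasts (adjusted p = 0.000637). Rplp0, the scaffold of the stalk, had medians of 521, 264 and 1331 CPM in immune cells, fibroblasts and keratinocytes and also differed between all pairs (log2 fold change -1.61, -2.52 and 0.91 in the same order of comparisons). Rplp2 had medians of 46.5, 22.9 and 269 CPM and differed from keratinocytes in both (-2.69 and -3.52), while immune cells and fibroblasts were not separated (0.82, adjusted p = 0.147).

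Among small subunit proteins, 22 of 30 were lower in immune cells than in keratinocytes, with a median log2 fold change of -2.19, and 23 of 30 were lower in fibroblasts, with a median of -3.03. Rps3, which lies at the messenger RNA entry of the small subunit, had a lowest, median and highest level of 557, 690 and 817 CPM in immune cells and 170, 230 and 415 in fibroblasts, with keratinocytes at 1455, 2144 and 3774. Its ranges do not overlap either, and it was lower in immune cells (-1.72 ± 0.24, adjusted p = 3.38e-06) and fibroblasts (-3.13 ± 0.25, adjusted p = 3.82e-10) than in keratinocytes. Rps19, a gene mutated in Diamond-Blackfan anaemia, had medians of 66.3, 32.7 and 272 CPM, with log2 fold changes of -2.18 and -3.04 against keratinocytes.

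Rps6, the substrate of the S6 kinases, was counted at low levels, with medians of 3.91, 2.96 and 47.4 CPM in immune cells, fibroblasts and keratinocytes. It was lower than in keratinocytes in both sorts (-3.47 ± 1.05, adjusted p = 0.0139, and -3.38, adjusted p = 0.0161). Rpsa, also known as the laminin receptor, had medians of 7.75, 3.06 and 34.7 CPM. It was lower in fibroblasts (-3.32, adjusted p = 0.00388) and in immune cells (-2.19 ± 0.81, adjusted p = 0.0393), and the second call was lost in 14 of 22 alternatives (adjusted p from 3.45e-09 to 0.240). Rps10, Rps20, Rps15a and Rps26 had the other large differences of immune cells from keratinocytes (-3.10, -2.77, -2.76 and -2.70), and Rps10, Rps21 and Rps18 those of fibroblasts (-4.43, -3.60 and -3.44). Rps10 had a median of 6.55 CPM in immune, 2.55 in fibroblast and 52.4 in keratinocyte libraries. Rps27 had medians of 6.34, 6.64 and 8.71 CPM and was not called against keratinocytes (0.00 and -0.08), although its intervals are wide.

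Of the 41 large subunit proteins, 21 were lower in immune cells than in keratinocytes (median of the 41, -2.03) and 22 were lower in fibroblasts (median -2.26). Rpl8 had a lowest, median and highest level of 358, 538 and 670 CPM in immune cells and 212, 285 and 558 in fibroblasts, with keratinocytes at 1709, 2299 and 4285. Keratinocytes stood above both other sorts in every library, whereas the ranges of immune cells and fibroblasts overlapped. Rpl39, a very small protein of the exit tunnel, had the largest differences of all members called: medians of 28.9, 12.0 and 273 CPM, with -3.51 ± 0.45 for immune cells (adjusted p = 1.22e-06) and -4.49 ± 0.47 for fibroblasts (adjusted p = 4.79e-08) against keratinocytes. Rpl4 was lower in both by a like amount (-1.48 ± 0.23 and -1.49 ± 0.23) and had no difference between immune cells and fibroblasts beyond its error (0.01 ± 0.22).

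Rpl22, an RNA-binding protein of the large subunit, had medians of 64.5, 44.6 and 381 CPM in immune cells, fibroblasts and keratinocytes (-2.77 ± 0.49 and -2.78 against keratinocytes). Rpl7 had 97.3, 55.3 and 268 CPM (-1.80 and -2.58). Rpl31 was lower in immune cells (-3.14 ± 1.12, adjusted p = 0.0342), a call lost in 14 of 22 alternatives (adjusted p from 8.31e-06 to 0.189), and Rpl37a (-3.58) and Rpl38 (-3.48) were lower in fibroblasts. Rpl3, which reaches into the peptidyl transferase centre, was lower in fibroblasts (-1.59, adjusted p = 0.0218) and not called in immune cells (-1.21, adjusted p = 0.0741). Rpl5 and Rpl11 had medians under 5 CPM in all sorts and were not called (Rpl5, -1.13 and -1.12; Rpl11, -1.88 and -1.02), nor was Rpl10, a protein that joins the large subunit late (-0.59 and -0.58).

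In all, 48 of 79 tested members were called lower in immune cells than in keratinocytes, where 8.61% of all 14104 tested genes were, and none was called higher, where 23.5% of all were. For fibroblasts against keratinocytes 50 of 79 members were lower (10.5% of all tested genes) and none higher (20.6% of all); none was higher at an unadjusted p under 0.05 either (29.5% of all tested genes were in immune cells and 26.2% in fibroblasts). The median log2 fold change of members was -2.07 for immune cells (4.2-fold) and -2.60 for fibroblasts (6.08-fold), against 0.48 and 0.40 for all tested genes. The libraries of the 2 groups did not overlap for 47 and 43 members, all lower (3.1% and 3.24% of all tested genes), and for none in the other direction (10.6% and 6.79%). Of 59 members with a mean of at least 100 counts, 47 and 50 were called.

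The same values were taken by how far reads could be placed. For the 13 members with at least 75% unique stretches, the median log2 fold change was -2.04 for immune cells and -3.02 for fibroblasts against keratinocytes, and 10 of 13 were called lower in each. For the 66 others it was -2.09 and -2.55. Keratinocyte libraries had the highest shares of alignments without a unique place (above), and the part of uncounted reads in these differences was not tested.

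**Figure D4:**
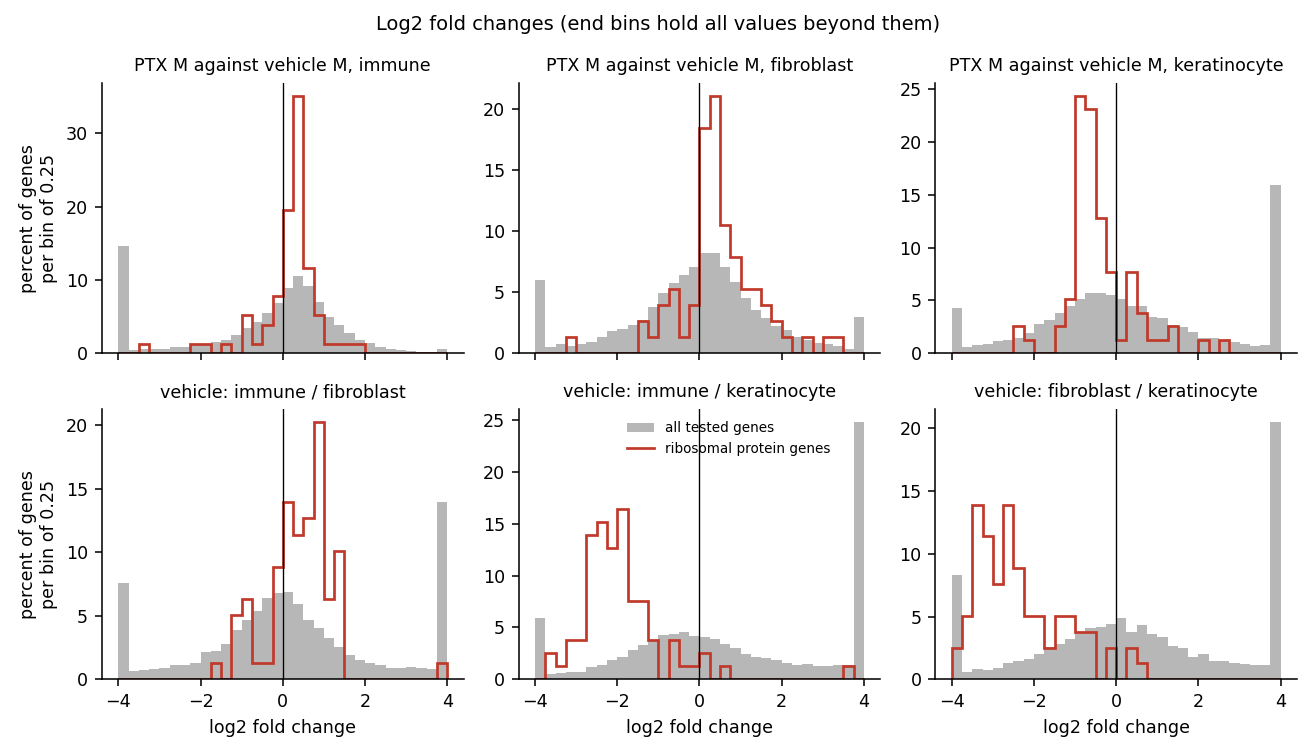
Distribution of log2 fold changes of the tested ribosomal protein genes (red line) and of all tested genes (grey) in 6 comparisons, as percent of genes per bin. In the vehicle comparisons with keratinocytes the red line lies to the left of the grey (medians -2.07 and -2.60), as it does for PTX in keratinocytes (median -0.61), and in the other 3 panels it lies around or right of 0.

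Between immune cells and fibroblasts, 11 of 79 members were higher in immune cells (13.9% of members, 13.3% of all tested genes) and none was lower (7.91% of all tested genes, and none of the members at an unadjusted p under 0.05). The median of members was 0.51, against 0.05 for all. Rps3 (1.4 ± 0.23, adjusted p = 5.06e-05), Rps14 (1.41), Rps9 (1.33 ± 0.26), Rps27l (1.29 ± 0.39), Rplp1, Rpl32 (1.08), Rpl13a (0.97), Rplp0 and Rpl8 (0.77) were among those that passed. Rps9, of the small subunit, had 250 to 422 CPM in immune cells and 79.8 to 197 in fibroblasts, with no overlap. The libraries did not overlap for 7 members, all higher in immune cells (6.48% of all tested genes were higher so and 3.96% lower). The share called is near that of all genes. The count was 22 when libraries were scaled by size alone, 3 in males only and 5 in females only. Fibroblast markers summed to 84.0 to 431 CPM in the immune libraries of vehicle females and 4893 to 11310 in those of vehicle males, and their part in these values was not tested. Without replicate 1 of the vehicle male fibroblasts, whose members were high (Rpl4 at 1457 CPM against 659 to 771 in the other 3), 19 were higher. Not called were Rpl39 (0.98, adjusted p = 0.0906), Rpl7 (0.77), Rps19 (0.86), Rpsa (1.13), Rpl22l1 (0.72), Rpl7l1 (0.85), Rpl3 (0.38), Rps27 (0.08), Rpl22 (0.02), Rpl5 (-0.0034), Rpl10 (-0.01), Rps6 (-0.10) and Rpl11 (-0.86).

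Other genes of the translation machinery were examined as lists drawn up with earlier results of these data known. Their counts stand beside 8.61% of all tested genes called lower and 23.5% higher in immune cells than in keratinocytes, and 10.5% lower and 20.6% higher in fibroblasts. Of 34 translation factors, 14 were lower in immune cells and 19 in fibroblasts than in keratinocytes (medians -0.83 and -1.18), and none was higher. Eef2, the elongation factor that drives translocation, was at 960 ± 182 CPM in immune cells (SD, n = 8) and 2690 ± 525 in keratinocytes (n = 7, log2 fold change -1.5, adjusted p = 3.7e-06). Of 40 ribosome biogenesis genes, 9 and 8 were lower, among them Npm1, Ncl and Nop10 in both, and 1 was higher in each, and of 76 mitochondrial ribosomal protein genes 8 and 19 were lower (medians -1.02 and -1.5). Gnb2l1, whose protein (RACK1) sits on the small subunit, was at 315 ± 53.4 CPM in immune cells and 168 ± 56.8 in fibroblasts, with keratinocytes at 1868 ± 360 (-2.58 and -3.48 against keratinocytes). Of 27 genes of mTOR signalling and TOP control, 5 were higher and none lower in immune cells, and 5 were higher and 2 lower in fibroblasts; Myc was at 1555 ± 551 CPM in fibroblasts against 286 ± 165 in keratinocytes (n = 8 and 7, log2 fold change 2.44). Between immune cells and fibroblasts, 1 of 34 translation factors (Eef1a1, 0.68), 1 of 76 mitochondrial ribosomal protein genes (Mrpl20, 1.85), Gnb2l1 (0.90) and Rps6ka1 (7.77) were higher in immune cells, and Nop58 (-1.57) and Myc (-2.70) were lower, where 13.3% of all tested genes were higher and 7.91% lower.

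The paralogs did not all follow their partners. Rpl22l1 had medians of 27.0, 16.0 and 98.0 CPM in immune cells, fibroblasts and keratinocytes and was lower than in keratinocytes in both (-2.0 ± 0.56, adjusted p = 0.00832, and -2.72 ± 0.57, adjusted p = 0.000755), as Rpl22 was. Rps27l had 86.7, 40.1 and 283 CPM and was lower in both as well (-2.04 ± 0.41 and -3.33 ± 0.43). Rpl7l1, a paralog of Rpl7, had 76.8, 48.9 and 88.8 CPM and was called in neither (0.14 and -0.71). Rps4y2, a relative of Rps4x that RefSeq lists as a transcribed pseudogene, had 32, 24.7 and 28.0 CPM and was not called (0.61 and 0.41).

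Rpl3l, the paralog of Rpl3 made in heart and skeletal muscle, was counted almost solely in the immune libraries of vehicle males, at 2.85, 19.1, 1.36 and 0.0488 CPM. Only 3 libraries held at least 10 counts of it, and the highest held 341. It met the minimum mean through these libraries, so its place in this group follows from the choice of members and is not a separate result. It was at 0 in all immune libraries of vehicle females and PTX males. A list of 6 skeletal muscle markers summed to 18.4 to 1085 CPM in those vehicle male libraries (median 635), against 9.99 to 33.2 in vehicle females and 1.42 to 58.1 in PTX males. The part of muscle RNA in the Rpl3l counts was not tested, and no fold change is given because its error could not be estimated.

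PTX in keratinocytes came with lower values of most ribosomal protein genes, of which 1 passed the test. They took 2.16, 1.45, 1.90 and 1.84% of gene counts in the 4 PTX libraries (1.84 ± 0.294%, mean ± SD, n = 4) against 3.07 ± 0.063% in vehicle males (n = 3) and 3.5 ± 0.804% in vehicle females (n = 4). All 4 PTX libraries lay below all 7 vehicle libraries. Replicate 2 of the vehicle males had 4511 genes with over 10 counts and 5 members at 0. Replicates 1 and 3 had 8846 and 7276 such genes, and the PTX libraries 7398 to 10211. The part of this in the PTX values of keratinocytes was not tested. Of 78 tested members 62 (79.5%) had a negative log2 fold change, against 48.4% of all tested genes, with a median of -0.61 against 0.07. By role the median was -0.76 for the small subunit, -0.43 for the large subunit and -0.68 for the stalk.

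Rpl8 was the member that passed, close to the threshold. It had 3052, 3721 and 2773 CPM in vehicle males, 4593, 1968, 3302 and 2591 in vehicle females and 1573, 1618, 1614 and 1076 in PTX males. All PTX libraries were below all vehicle libraries. The log2 fold change was -1.11 ± 0.27 (SE, 95% interval -1.64 to -0.59), from 3182 ± 487 to 1470 ± 264 CPM (SD), with an adjusted p of 0.0445 by edgeR. The call was lost in 10 of 17 alternatives, among them the fits without any 1 of the 3 vehicle male and 4 PTX libraries (adjusted p from 0.00606 to 0.210). Over all tested genes 0.302% were called lower and 1.15% higher; no member was called higher, and none had an unadjusted p under 0.05 in that direction.

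Other members with low p did not pass. Rpl32, a large subunit protein often used as a reference gene, had 1316, 1632 and 1180 CPM in vehicle males and 658, 428.5, 635 and 752 in PTX males (-1.15 ± 0.31, adjusted p = 0.0864). Rps26, of the messenger RNA exit of the small subunit, had 650, 764 and 931 CPM against 398, 318, 313 and 424 (-1.11, adjusted p = 0.205). In both genes, too, the PTX libraries lay below the vehicle male libraries.

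Such a separation was seen for 30 of 78 tested members, where 4.29% of all tested genes were lower without overlap, and for none in the other direction, where 9.15% were. Members had a lower median spread between libraries than all tested genes (below), and these shares are not matched on spread. They also moved together from library to library (below), so the 30 are not independent. The 30 were 14 of the small subunit, 13 of the large subunit and all 3 of the stalk. Rplp0 had 1768, 1797 and 1687 CPM in vehicle males and 1233, 938, 1130 and 1109 in PTX males (-0.67 ± 0.31, adjusted p = 0.326). Rplp1 had 1270, 1206 and 1292 CPM against 828, 689, 715 and 845 (-0.71 ± 0.28, adjusted p = 0.249), and Rplp2 284.5, 463 and 296 against 247, 154, 261 and 208 (-0.68, adjusted p = 0.757). All 3 stalk genes were lower in each PTX library than in each vehicle male library, by a like ratio and with errors that do not set them apart from 0 after adjustment over all genes.

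Rps3 (-0.65 ± 0.28) and Rpl4 (-0.69 ± 0.27) were also separated, and Rps19 (-0.65, adjusted p = 0.794), Rpsa (-0.37) and Rps6 (-2.04 ± 1.86) were not. The Mdm2-binding pair had positive values with wide errors, 0.82 ± 2.13 for Rpl5 and 0.32 for Rpl11. Among the paralog pairs, Rpl22 had 591.5, 737 and 454 CPM in vehicle males and 403, 166, 346 and 327 in PTX males (-0.94 ± 0.49), and Rpl22l1 85.3, 172 and 120 against 58.2, 16.4, 93.8 and 128 (-0.76 ± 1.14). Rps27l had -0.91 and Rps27 2.65 ± 2.85, Rpl7 -0.75 and Rpl7l1 -1.33, Rpl3 -0.41, Rpl39 -0.13 and Rpl10 0.35. None of these values passed. At an unadjusted p under 0.05 there were 11 members lower (3.51% of all tested genes) and none higher.

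The negative values lay among the members with most counts. Of 59 tested members with a mean of at least 100 counts, 53 had a negative value, with a median of -0.67, and 28 were separated. Of the 19 with fewer, 9 were negative and the median was 0.31. The 12 tested members with at least 75% unique stretches had a median of -0.77, with 11 negative and 7 separated. The share of alignments without a unique place was 52.8 to 54.2% in vehicle male and 48.3 to 52.0% in PTX keratinocytes.

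The make-up of the keratinocyte libraries moved with PTX too. All 8 fibroblast markers were detected in both groups, and their sum was 116 to 517 CPM in vehicle males and 12860 to 19978 in PTX males. The 8 basal keratinocyte markers summed to 23800 to 37229 CPM in vehicle males and 4717 to 12587 in PTX males, the 8 pan-immune markers to 173 to 400 and 1004 to 1533, and the 6 endothelial markers to 0.459 to 323 and 1567 to 1959. Fibroblast and immune libraries held the members at a lower level than keratinocytes (above). The part of these other cells in the lower values was not tested.

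No gene of the other lists was called, and 3 of the 4 larger lists had negative medians. In PTX against vehicle male keratinocytes edgeR called none of 33 translation factors (median -0.53, with 4 lower at an unadjusted p under 0.05 and none higher), none of 39 biogenesis genes (median -0.42), none of 76 mitochondrial ribosomal protein genes (-0.41) and none of 25 mTOR and TOP control genes (0.05, near the 0.07 of all tested genes). Gnb2l1 went from 2543 to 1731 CPM (-0.56 ± 0.25, adjusted p = 0.308).

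**Figure D5:**
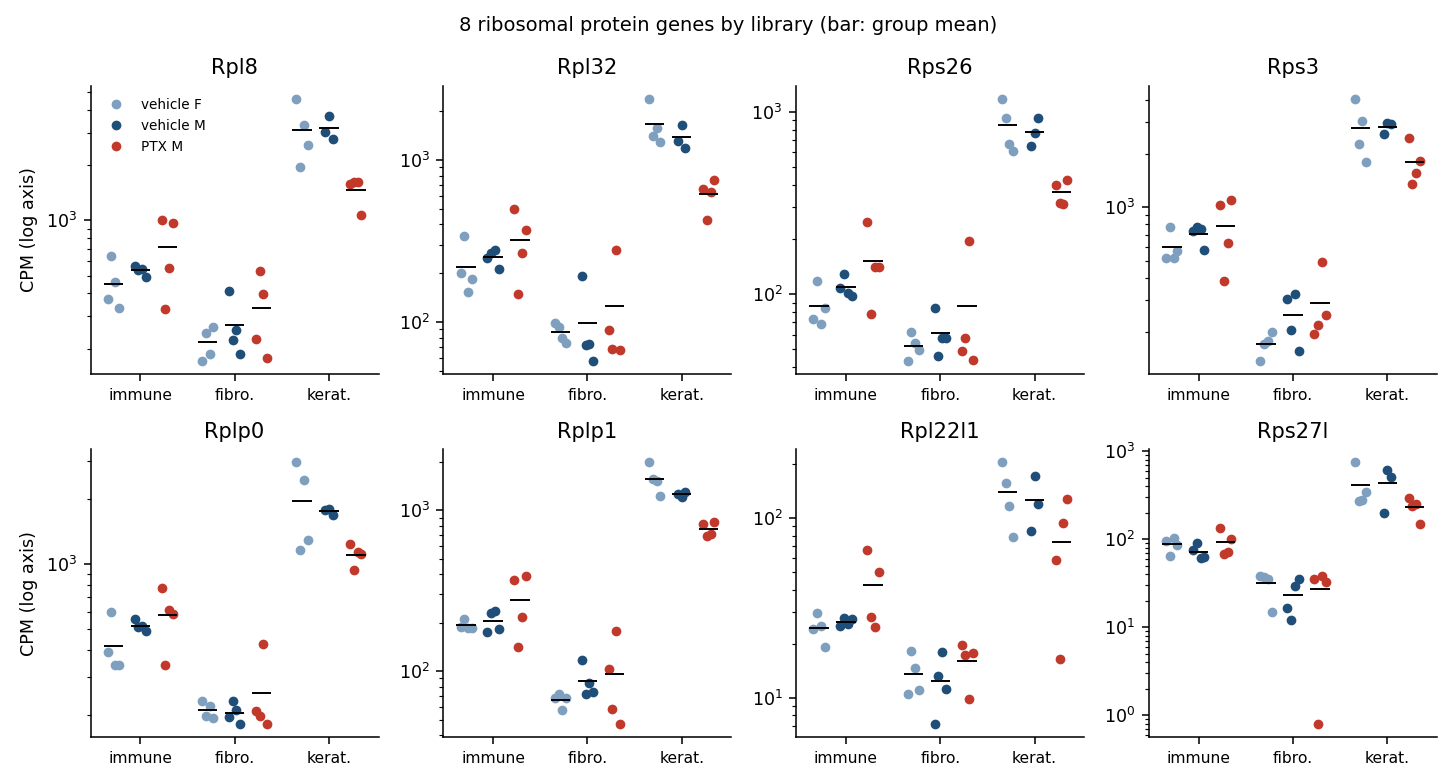
CPM of 8 ribosomal protein genes in every library (log axes), by sort and group (F, female; M, male); horizontal bars are group means. CPM are scaled within each sort. In keratinocytes the PTX libraries lie below the vehicle male libraries for Rpl8, Rpl32, Rps26, Rps3, Rplp0 and Rplp1, and overlap them for Rpl22l1 and Rps27l; in immune cells and fibroblasts the groups of all 8 genes overlap.

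In immune cells no member passed the test after PTX. The members took 0.879, 0.467, 0.712 and 0.775% of gene counts in PTX libraries against 0.766 ± 0.0793% in vehicle males, with replicate 2 below and replicate 1 above all vehicle male libraries. Of 77 tested members edgeR called none in either direction (0.956% of all tested genes were higher and 4.56% lower), 1 was higher (5.42% of all tested genes) and none lower (14.6%) at an unadjusted p under 0.05, and DESeq2 called 2 higher and 1 lower. The median was 0.29, against 0.10 for all tested genes; scaled by library size alone it was -0.10, against -0.25, and without 1 library it ran from 0.07 to 0.45.

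Rpl7l1 was the member nearest the threshold. It had 69.1, 76.7, 54.8 and 70.4 CPM in vehicle males and 167, 115, 132 and 153 in PTX males (1.07 ± 0.36, adjusted p = 0.100), without overlap, while vehicle females had 79.5, 60.2, 114 and 118, so that the highest vehicle female library exceeded the lowest PTX library. Rpl27a had 6.93 ± 2.48 and 27.5 ± 11.7 CPM (1.99 ± 0.99, adjusted p = 0.30), and Rps9 345 ± 71.2 and 496 ± 133 (0.53 ± 0.26, adjusted p = 0.284). Groups without overlap were found for 2 members in each direction (3.11% of all tested genes higher, 10.8% lower).

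Members with many counts had small values in immune cells. Rpl4 had 0.12 (95% interval -0.30 to 0.54), Rplp0 0.16 (-0.35 to 0.66), Rps3 0.14 (-0.43 to 0.71), Rplp1 0.43 (-0.16 to 1.03) and Rpl22 0.29 (-0.71 to 1.28). These intervals do not reach a 2-fold lower level. Rpl11 (1.38 ± 1.28), Rpl22l1 (0.68 ± 0.72), Rpl3 (0.51), Rpl7 (0.46), Rps27 (0.52), Rps27l (0.36), Rplp2 (0.26), Rpl10 (0.25), Rps19 (0.20), Rpl39 (-0.07), Rpsa (-0.16), Rpl5 (-0.34) and Rps6 (-0.93) were not called either. Fibroblast markers summed to 4893 to 11310 CPM in the vehicle male immune libraries and to 193 to 1350 in the PTX libraries. Basal keratinocyte and adipocyte markers also differed between these groups (above). The part of any of these markers in the PTX values of immune cells was not tested.

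In fibroblasts no member passed after PTX either. The members took 0.327, 0.305, 0.697 and 0.317% of gene counts in PTX libraries and 0.335 ± 0.0677% in vehicle males, so that replicate 3 stood above all others. Of 76 tested members edgeR called none (0.00921% of all tested genes in each direction), and none had an unadjusted p under 0.05 (2.79% of all were higher and 5.28% lower). The median was 0.35 against 0.08 for all tested genes, and -0.04 without PTX replicate 3. In that library alignments without a unique place were 47.7% of all entries of the counter, the most of any fibroblast library. Rplp0 had 208, 198, 423 and 182 CPM in PTX males and 195, 232, 212 and 181 in vehicle males (0.31 ± 0.41). Rpl28 (3.42 ± 2.14, adjusted p = 0.822), Rpl34 (3.20 ± 2.08) and Rps29 (-3.06 ± 2.09) had the lowest p and all had libraries at 0. Rpl10 had 9.4, 9.41, 9.85 and 9.97 CPM in vehicle males and 15.1, 32.9, 43.6 and 41.3 in PTX males (1.78, adjusted p = 0.907), 1 of 2 members with groups that did not overlap. The other was Rpl38, also with higher values, and none was lower without overlap (1.38% of all tested genes were higher so and 1.81% lower). Scaled with the vehicle libraries of all sorts, Rpl10 ran from 7.40 to 29.8 CPM over the 8 vehicle fibroblast libraries of both sexes. Only 7.87% of the stretches of Rpl10 were unique.

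The remaining fibroblast values lay within their errors. They were 0.15 for Rplp1, 0.22 for Rplp2 and for Rps3, 0.49 for Rps19, 0.13 for Rpl4, 0.66 for Rpl22, 0.38 for Rpl22l1, 0.83 for Rpl39, 0.37 for Rpl3, 0.21 for Rps27l, 1.46 for Rps27 and 0.33 for Rpl11. Negative values were -0.14 for Rpl7, -1.14 for Rpl7l1, -0.76 for Rpsa, -0.66 for Rps6 and -0.98 for Rpl5. Rpl7l1 was at or under 1.45 CPM in 2 vehicle male and 2 PTX libraries and at 25.4 to 78.0 in the others. Fibroblast markers summed to 48361 to 75495 CPM in the vehicle male fibroblast libraries and to 33771 to 48076 in the PTX libraries. Their part in the PTX values of fibroblasts was not tested.

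Whether the PTX difference varied between sorts was tested with an interaction term. In it, an action of PTX on the cells and a change in the make-up of a sort cannot be told apart. Fibroblast markers and markers of other cell types moved with PTX in both keratinocyte and immune libraries (above), and their part in these values was not tested. Against keratinocytes, the PTX difference of Rpl8 was higher in immune cells by 1.70 ± 0.51 on the log2 scale (edgeR, adjusted p = 0.0362), the only call among 79 tested members (0.347% of all tested genes higher, 9.26% lower). It was lost in 11 of 19 alternatives (adjusted p from 0.0154 to 0.137). These include the fits without vehicle male replicate 2, 3 or 4 or PTX replicate 1 or 4 of the immune cells and without vehicle male replicate 1, 2 or 3 or PTX replicate 4 of the keratinocytes. Rpl32 (1.68 ± 0.58, adjusted p = 0.0617) and Rps26 (1.75 ± 0.65, adjusted p = 0.0818) did not pass, 9 members were higher at an unadjusted p under 0.05, and the median was 1.06 against -0.70 for all genes. The stalk genes had 0.99 ± 0.52 (Rplp0), 1.31 ± 0.52 (Rplp1) and 1.10 ± 0.86 (Rplp2), and Rps3 and Rpl4 0.97 ± 0.50 and 0.99 ± 0.44, none of them past the threshold.

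For fibroblasts against keratinocytes edgeR called no member of 78 (0.313% of all tested genes higher, 3.0% lower), with 3 higher at an unadjusted p under 0.05. Rpl8 (1.5 ± 0.60, adjusted p = 0.158) and Rpl32 (1.53, adjusted p = 0.258) were among the 3 with the lowest p, and the median was 0.99 against -0.44. Rplp0 had 1.01 ± 0.60 and Rplp1 0.89 ± 0.64. For immune cells against fibroblasts none of 78 was called (0.36% and 3.15% of all tested genes) and none had an unadjusted p under 0.05. Rpl28 (-4.30 ± 2.79), Rpl7l1 (2.33) and Rps13 (-3.22) had the lowest p, with adjusted p of 0.499, 0.536 and 0.633. The keratinocyte libraries are shared by both comparisons with that sort, so the 2 sets of values are not independent. In those libraries fibroblast markers summed to 116 to 517 CPM in vehicle males and 12860 to 19978 in PTX males. Their part in the values of either comparison was not tested.

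The other lists gave few calls in the PTX comparisons of immune cells and fibroblasts. In immune cells Bysl, a factor of small subunit assembly, fell from 31.7 ± 15 to 0.123 ± 0.107 CPM (n = 4 each, log2 fold change -7.95, adjusted p = 0.00704), 1 of 40 biogenesis genes. Rps6ka3 (-5.02, 1 of 26 mTOR and TOP control genes) fell as well. So did Mrpl44 (1 of 75 mitochondrial ribosomal protein genes), from 17.1 ± 14.3 to 0.0213 ± 0.0426 CPM, for which no fold is given because almost nothing was counted after PTX; none of 33 translation factors was called, with 5 higher at an unadjusted p under 0.05. These counts stand beside 0.956% of all tested genes called higher and 4.56% lower. The PTX immune libraries also had fewer genes with over 10 counts, 5956 to 8700 against 11000 to 12813 in vehicle males, and 2 to 6 members at 0 against none; the part of this in the 3 falls to near 0 was not tested. In fibroblasts none of 33 translation factors, 40 biogenesis genes, 24 mTOR and TOP control genes and 76 mitochondrial ribosomal protein genes was called. In the interactions, the PTX difference of Eif3b (an eIF3 initiation factor subunit) was higher in immune cells than in fibroblasts (7.0) and in keratinocytes (4.31). Of 34 translation factors, 1 and 2 were higher in these 2 comparisons. In fibroblasts Eif3b was at 119 ± 85.6 CPM with vehicle and 3.31 ± 4.64 after PTX (males, edgeR adjusted p = 0.468). The PTX difference of Akt1 was lower in immune cells (-7.46) and in fibroblasts (-6.44) than in keratinocytes. Both Akt1 values rest on keratinocytes of vehicle males, at 0.555 ± 0.887 CPM (n = 3), against 146 ± 90.6 after PTX. Over all 7 vehicle keratinocyte libraries, females included, Akt1 was at 57.3 ± 63.8 CPM. The part of levels near 0 in these Eif3b and Akt1 values was not tested. Of 40 biogenesis genes 1 was higher in immune cells than in fibroblasts (Taf1b) and 1 was higher than in keratinocytes (Wdr43). Of 76 mitochondrial ribosomal protein genes 3 were higher and 1 lower in immune cells than in fibroblasts. Of all tested genes 0.36% were called higher and 3.15% lower for immune cells against fibroblasts, 0.347% and 9.26% for immune cells against keratinocytes, and 0.313% and 3.0% for fibroblasts against keratinocytes.

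Within each group, the members moved together from library to library. For the 27 members with a mean of at least 1000 counts, deviations from the group means of log2 CPM had a median pairwise Pearson correlation of 0.76 over 12 immune libraries, 0.55 over 12 fibroblast libraries and 0.60 over 11 keratinocyte libraries, and 96.0 to 99.1% of pairs were positive. Other genes above that minimum had medians of 0.002, -0.006 and 0.004. These values describe genes that share libraries, scaling and depth. In the immune cells of vehicle females replicate 2 was the high library, and in the fibroblasts of PTX males replicate 3.

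The members also had a lower median spread between libraries than all tested genes above the same minimum. Among genes of at least 50 CPM, not matched further on level, the median coefficient of variation was 14.6% for members and 25.2% for all tested genes in vehicle male immune cells, 15.1 and 34.6% in vehicle female fibroblasts, and 19.7 and 87.5% in vehicle male keratinocytes. It was lower than that of all genes in the other 6 groups as well, with the smallest gap in vehicle female immune cells (26.0 and 28.1%). In vehicle male keratinocytes Rplp0 (3.24%) and Rps24 (3.5%) were among the 3 that varied least and Rps27 (173%), Rps28 (171%) and Rpl23a (154%), all with few counts, were those that varied most. In vehicle male immune cells Rpl13 (3.51%), Rps2 (4.89%) and Rpl22l1 (4.96%) varied least.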

How the data were processed

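Sorted cells were profiled by stranded TruSeq mRNA sequencing (50 bases, single end), per the labels' protocols. The authors' deposited values are raw read counts per gene symbol, made with bcl2fastq, TopHat2 and HTSeq on the mouse build mm9, per the submitters' processing notes. For the versions of these tools, the annotation and the strand option of the counter, the entry is: not given in the sources used here. Library sizes and tests use gene lines only, without HTSeq's summary lines.

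The counts were fitted by edgeR 4.0.16 under R 4.3.3, after filterByExpr and with TMM scaling, by robust glmQLFit and the two-sided glmQLFTest. A call means a Benjamini-Hochberg adjusted p under 0.05 over all tested genes. PTX was tested in 1 fit per sort with 3 groups, sorts were compared in 1 fit of 23 vehicle libraries with a coefficient per sort and sex, and PTX effects were compared by an interaction term in a fit over 2 sorts. CPM are TMM-scaled within each fit, so a gene's levels differ slightly between them. Intervals at 95% were formed from the estimate and its SE. Shares of gene counts are unscaled. No main fit dropped a sample of the groups it covers, and no fit imputed one.

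The members and lists were chosen with earlier results of these data known. Named in each comparison were a set list of members (stalk proteins, Rpsa, Rps3, Rps6, Rps19, Rpl4, Rpl5, Rpl11 and 6 pairs of paralogs) and up to 8 called members per direction with the largest change, or the 3 with the lowest p where fewer than 3 were called; for spread, the 3 with the highest and the 3 with the lowest coefficient of variation; for other lists, up to 4 called genes. Rpl8 in the vehicle comparisons, Rps26 for PTX in keratinocytes, Rpl38 for PTX in fibroblasts, Rpl9 and Rps4y2 were named outside that rule, after their values were seen. Some members that the rule names are not reported here. Uniqueness of 50-base stretches was computed for 1 transcript per gene against GENCODE M21 transcripts, and starts are from RefSeq. Alternatives were RLE scaling, library size only, no filter, DESeq2 1.42.0, a replicate block, limma 3.58.1 with voom quality weights, other controls, 1 sex only, only the 2 groups compared, and leaving out each library; leaving out libraries in the interactions was added after seeing the data. The scripts were tested on simulated data, and no pair of libraries held identical values.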

Additional observations from a re-analysis of the deposited data

Results flagged for a closer look

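Of 163 groups of 4 libraries examined (the share of counts in members, and the members named in each comparison), 20 held 1 library far from the other 3 by Dixon's criterion, which chance alone meets in about 1 in 20 groups. That rate does not apply where the other 3 libraries are at 0, as any count then meets the criterion. Rpl3l in PTX fibroblasts and in vehicle female keratinocytes was flagged in this way. The groups also share libraries and are not independent. Libraries that were high for several members come first. In immune cells of vehicle females, replicate 2 was high for the share of members (0.867% against 0.495 to 0.531%), Rplp1 (212 CPM against 187 in the other 3), Rps19 (83.6 against 44.1 to 48.1) and Rpl4 (1167 against 663 to 724). In fibroblasts of PTX males, replicate 3 was high for the share (0.697% against 0.305 to 0.327%), Rplp0 (423 CPM against 182 to 208) and Rpl39 (57.9 against 11 to 16.6). In fibroblasts of vehicle males, replicate 1 was high for Rpl4 (1457 CPM against 659 to 771), Rpl22 (224 against 18.2 to 35.1) and Rpl3 (65.7 against 21.5 to 28.1).

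The others were single genes. In fibroblasts of vehicle females, replicate 4 was high for Rpl11 (11.5 CPM against 0.407 to 1.74) and low for Rps27l (14.9 against 35.4 to 38.3). In fibroblasts of PTX males, Rps6 was at 4.81 CPM in replicate 1 (others at most 0.320), Rps27 at 49.6 in replicate 4 (0.0987 to 7.40), Rps27l at 0.790 in replicate 2 (32.6 to 38.8) and Rpl3l at 0.0668 in replicate 4 (0 in the others). In immune cells, Rpl3l was at 19.1 CPM in vehicle male replicate 2 (0.0488 to 2.85) and Rpl10 at 33.7 in PTX replicate 4 (9.26 to 12.3). In keratinocytes of vehicle females, Rps27l was at 751 CPM in replicate 1 (275 to 348) and Rpl3l at 0.108 in replicate 3 (0 in the others).

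The PTX effect on Rpl8 differed between immune cells and keratinocytes by 1.70 on the log2 scale (edgeR interaction test, adjusted p = 0.0362), with a higher value in immune cells, a call lost in 11 of 19 alternatives. Fibroblast markers summed to 116 to 517 CPM in vehicle male and 12860 to 19978 in PTX keratinocytes, and to 4893 to 11310 in vehicle male and 193 to 1350 in PTX immune libraries. Their part in the difference was not tested.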

How the results depend on the processing

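Calls and medians of the members were recomputed under the alternatives in 528 summaries of 27 results, of which 487 stayed within 1.5 times the count or within the spread, 41 moved and none reversed. Scaled by library size only, the member median was -0.10 for PTX in immune cells (all genes -0.25), 0.82 with 22 members higher for immune cells against fibroblasts (all genes 0.35) and -3.19 for fibroblasts against keratinocytes (all genes -0.18). For PTX in immune cells DESeq2 called 2 members higher and 1 lower. For PTX in keratinocytes the members called lower were 3 without a filter (median -0.86), 2 with DESeq2, 0 with the replicate block, 5 with voom, 4 with all vehicle libraries as controls, 2 with females as controls, and 0 to 1 when 1 library was left out. For immune cells against fibroblasts 3 were higher in males only and 5 in females only, and 9 to 19 without 1 library. For immune cells against keratinocytes 28 were lower in males only, and without 1 library 0 to 1 were higher, the 1 without vehicle male keratinocyte replicate 1. For the immune minus keratinocyte PTX effect the members called higher were 0 without a filter, 7 with DESeq2, 0 with the replicate block and 0 to 2 without 1 library, where the median ran from 0.49 (without immune PTX replicate 1) to 1.19; it was 0.66 without keratinocyte vehicle male replicate 2 or 3. The causes of these changes were not tested. The median of the immune minus fibroblast effect ran from -0.46 to 0.34 without 1 library and that of PTX in fibroblasts from -0.04 to 0.61. Same-numbered vehicle male and PTX male libraries of a sort did not deviate together (correlations from -0.05 to 0.05). Pairing by number with vehicle females or across sorts was not examined. The replicate block moved no other count of member calls by over 1.5 times. Members with few counts, and those whose reads mostly have copies elsewhere, are the least precise.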
